A study of Rattus norvegicus with 14 samples.

Results

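MicroRNAs (miRNAs) encoded in the imprinted Dlk1-Dio3 region were followed in pancreatic islets of control rats and of rats in mid-gestation. They were taken by name, from a list of 43 miRNA names of the locus, whatever their level. The islet table held 48 measured arms of 38 of these names, out of 350 rat miRNAs in all, and had no entry for miR-544, miR-665, miR-666, miR-667 or miR-668. An arm is the strand of a miRNA hairpin that a probe measures, and an asterisk marks the minor strand in the older names that the array uses.

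Islets of control female rats (4 arrays) were compared with islets of female rats on day 14 of gestation (4 arrays), on 1-colour miRNA arrays with cyanine 3 labelled total RNA. The labels give no strain, age, genotype or treatment for either group, and do not say whether an array held the islets of 1 animal or of a pool. Arrays within a group are labelled as biological replicates. P-values therefore cover the variation among 8 arrays, and this small number sets the precision. The series title names the expansion of beta-cell mass in pregnancy, and the comparison asked which islet miRNAs differ with it. Fewer cells of a type and less RNA per cell cannot be told apart in such preparations.

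The Dlk1-Dio3 locus is imprinted: the protein-coding genes Dlk1, Rtl1 and Dio3 are expressed from the paternal chromosome, and the long noncoding RNAs Meg3, Rian (also called Meg8) and Mirg, with the miRNAs and small nucleolar RNAs cut from them, from the maternal one. The miRNAs are abundant in brain, placenta and endocrine cells, and in human islets they are expressed in beta cells and are lower in diabetes. In rat neurons the transcript that carries the miR-379/miR-410 cluster is induced by activity.

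In the rat gene table the hairpins lie in 1 row on chromosome 6, and 3 stretches were used to order them. The first runs from Meg3 to Rtl1, with miR-770 inside Meg3 and miR-431, miR-433, miR-127, miR-434 and both arms of miR-136 inside the interval of Rtl1. The second is the Rian stretch, with miR-341 and miR-370. The third is the miR-379/miR-410 cluster in Mirg, with 35 of the 48 arms. In the mouse, the miRNAs inside Rtl1 are transcribed antisense to it and guide cleavage of its messenger RNA.

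The mature sequences of the arms on which the comparison turns are printed from 5′ to 3′, in genome order, with the seed (bases 2 to 8, which pair with target messages) in capitals. They come from RefSeq, with positions on the plus strand of build GRCr8. A match was found for 25 of the 26 tested arms, while miR-136 is named only. Where the array name gives no arm, as for most of them, the arm was assigned by hand from the older name and was not checked against probe sequences.
miR-337 (chr6:134321201-134321223): uUCAGCUCcuauaugaugccuuu
miR-433 (chr6:134327421-134327442): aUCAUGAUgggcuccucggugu
miR-127 (chr6:134328510-134328531): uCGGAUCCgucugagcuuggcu
miR-434 (chr6:134330451-134330472): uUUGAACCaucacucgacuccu
miR-136* (chr6:134331383-134331404): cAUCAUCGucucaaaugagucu
miR-341 (chr6:134347871-134347891): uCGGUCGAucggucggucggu
miR-411 (chr6:134544604-134544624): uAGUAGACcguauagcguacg
miR-494 (chr6:134550163-134550185): uGAAACAUacacgggaaaccucu
miR-376c (chr6:134558256-134558276): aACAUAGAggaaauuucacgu
miR-376b-5p (chr6:134558876-134558897): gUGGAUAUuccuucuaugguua
miR-487b (chr6:134562939-134562960): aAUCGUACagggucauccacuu
miR-382 (chr6:134569956-134569977): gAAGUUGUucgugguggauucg
miR-485 (chr6:134571076-134571097): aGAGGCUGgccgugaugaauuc

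No seed was shared between any of the 27 arms whose sequence was looked up, so these 27 arms form no common seed family. The other arms of the locus were not compared with each other. Among all 693 mature rat miRNAs of the table, 6 of the 27 arms had a partner with the same seed. One of these is miR-381, whose partner miR-539-3p is an arm of the miR-539 hairpin in the same cluster. Another is miR-376b-5p, whose partner is the miR-376c-5p arm, for which the islet table has no entry. The sequences of that pair, and of a second pair of near relatives in the cluster, are shown because a probe may not separate them.
miR-376b-5p: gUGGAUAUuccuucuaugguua
miR-376c-5p (chr6:134558219-134558239): gUGGAUAUuccuucuauguuu
miR-300-3p (chr6:134559968-134559989): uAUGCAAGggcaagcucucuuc
miR-381 (chr6:134562422-134562439): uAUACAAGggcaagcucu
MiR-376b-5p and miR-376c-5p were identical at 20 of the 21 bases compared from the 5′ end, and the files do not say whether the probe tells them apart. MiR-300-3p and miR-381 were identical at 17 of 18 bases, with the difference inside the seed. MiR-300-3p was detected on all 8 arrays at a scaled signal of 126 to 177, while miR-381 stood at the lowest recorded value on all 8. Of the 3p arms of the miR-376 family, miR-376a and miR-376b-3p were identical at 18 of 21 bases and miR-376a and miR-376c at 17 of 21. On the same arrays miR-376a read 145 to 228 and miR-376b-3p only 2.08 to 18.3. For miR-376a and miR-376c, both detected on all 8 arrays, the files do not say whether the probes tell them apart.

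Signals are given after scaling every array to a common 75th percentile, computed from the 153 miRNAs with a detection call everywhere, which used factors of 0.810 to 1.30. Between 157 and 188 miRNAs were detected on an array, and the summed unscaled signal ran from 148467 to 229760. The defining islet miRNAs miR-375 and miR-7a were detected on all 8 arrays, with a mean scaled signal of 9519 ± 1051 (SD, n = 4) for miR-375 in control islets and 9158 ± 1066 in pregnancy. Markers of other cells were present too. The summed signal of 6 stromal and smooth muscle miRNAs ran from 1745 to 7592 in control islets and from 1046 to 2103 in pregnancy, that of 7 leukocyte miRNAs from 873 to 1129 and from 697 to 5190, that of 2 erythroid miRNAs from 266 to 732 and from 651 to 1653, that of both arms of the endothelial miR-126 from 1662 to 1776 and from 1280 to 1736, and that of the acinar miR-216a from 114 to 312 and from 25.9 to 242. MiR-10a-3p and miR-133a of the stromal list and the acinar miR-217 were detected on no array.

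Of the 48 arms, 24 were detected on all 8 arrays. MiR-299 was detected on 3 control and 4 pregnant arrays and miR-485 on 2 control and 3 pregnant arrays, and these 26 arms, detected on at least 4 arrays, were tested. MiR-376a* (3 arrays), miR-376b-3p and miR-541 (2 arrays each) and miR-379* (1 array) were detected too rarely to be tested, miR-379* only in the pregnant group. The other 18 arms were detected on no array. In genome order they are miR-770, miR-673, miR-493, miR-540, miR-370, miR-380, miR-323, miR-323*, miR-543, miR-543*, miR-300-5p, miR-381, miR-382*, miR-134, miR-377, miR-409-3p, miR-412 and miR-369-3p. At the lowest recorded value on every array stood 8 of them, which sets only an upper bound on their level. MiR-134, which limits the size of dendritic spines in rat neurons, was flagged as not detected although its scaled signal reached 35.4 in control replicate 2.

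The array carries both arms of 10 of these hairpins, and only for miR-136 were both arms tested. For miR-300, miR-369, miR-376a, miR-376b, miR-379, miR-382 and miR-409 1 arm was tested and the other was detected on at most 3 arrays, and for miR-323 and miR-543 neither arm was detected. The log2 signal of miR-136 was higher than that of miR-136* by 2.70 ± 0.15 (SD, n = 4) in control islets and by 2.61 ± 0.19 in pregnancy. Over the arrays it ran from 2.34 in pregnant replicate 2 to 2.88 in control replicate 1, a wider spread than the log2 change of either arm. The probes of the arms may respond differently, so the size of the difference is no ratio of their levels. Among the tested arms, 16 lay above all 7 negative control features on every array. The highest reading of such a feature was 74.7. MiR-337 exceeded all of these features on 6 arrays, miR-433 on 3 and miR-495 on 2. MiR-411 and miR-299 did so on 1 array each, and miR-376b-5p, miR-487b, miR-539, miR-409-5p and miR-485 on none. On their remaining arrays these signals lay among the negative controls, although most were flagged as detected.

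None of the 26 tested arms passed the threshold of a limma adjusted p under 0.05, with adjustment over all 171 miRNAs tested. Over all of these, 8 miRNAs (4.68%) passed, 4 of them (2.34%) higher in pregnancy. At an unadjusted p under 0.05, 2 of the 26 arms were found (7.69%), against 42 of 171 (24.6%) over all miRNAs, or 14 (8.19%) when higher in pregnancy only. This count of 2 depended on the setting: it was 10 when the percentile was taken over every miRNA, 9 without control replicate 1, 4 with the replicate number or the slide row as a block, 3 without pregnant replicate 2 or 4, 1 without control replicate 2 or 3 or with the authors' values, and 0 without scaling. No share over all miRNAs is given for these other settings, so their counts cannot be read as specific to the arms. With the percentile over every miRNA, log2 changes moved upward across the array. Of all 171 miRNAs, 64.9% were then positive, with a median of 0.13. Under the scaling used otherwise, the groups overlapped for every one of the 26 arms. They did not overlap for 25 of 171 miRNAs (14.6%), 9 of them (5.26%) with all pregnant arrays above all control arrays. What the arms had in common was their sign: 25 of 26 (96.2%) had a positive log2 change, against 82 of 171 (48.0%) over all miRNAs tested. The median log2 change was 0.12 for the 26 arms and -0.02 for all 171.

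**Figure D1:**
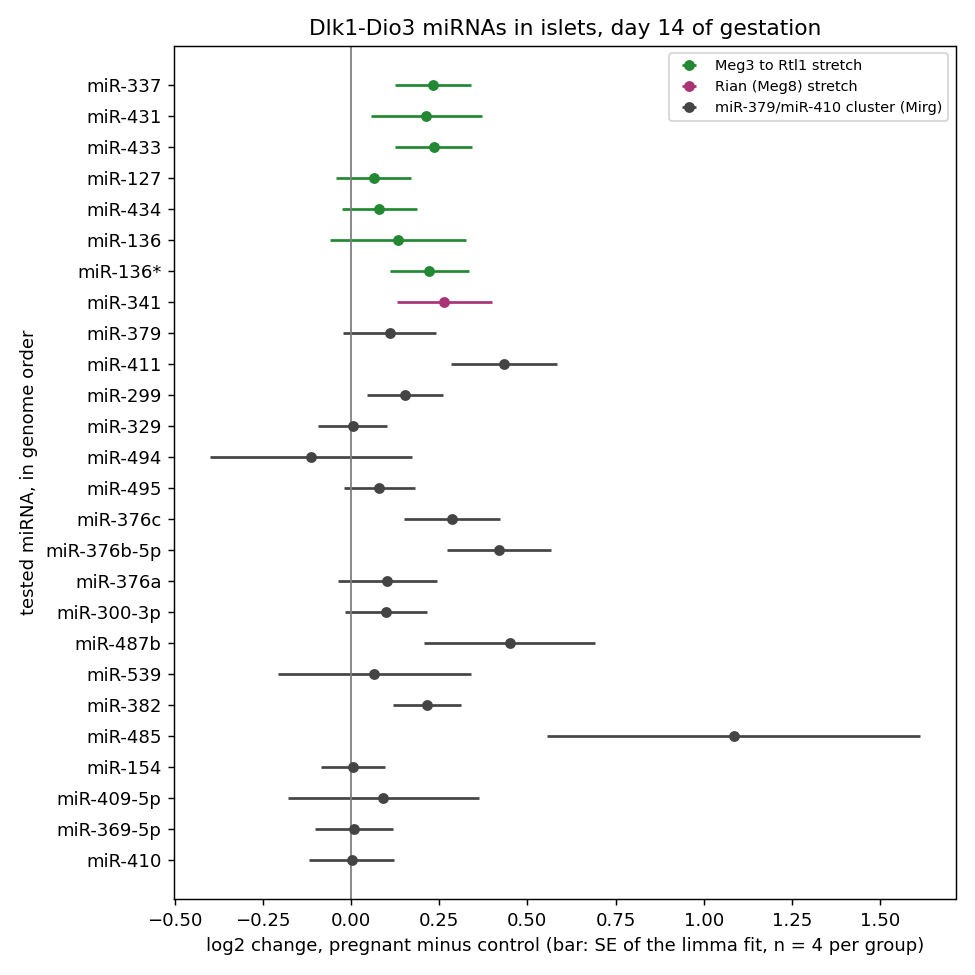
Log2 change (pregnant minus control, x axis) of the 26 tested Dlk1-Dio3 miRNAs, listed in genome order, with the SE of the limma fit as a bar and the stretch of the locus as colour. All points but that of miR-494 (-0.11) lie above 0, most within 0.5, and none passed the threshold.

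In the stretch from Meg3 to Rtl1, 7 of 11 arms were tested, all 7 differences were positive (median log2 change 0.21), and 0 passed. MiR-433, which is antisense to Rtl1, had scaled signals of 54.5, 42.5, 45.1 and 48.7 on control arrays 1 to 4 and of 54.7, 57.0, 63.6 and 49.1 on pregnant arrays 1 to 4. Only control replicate 1 reached the range of the pregnant arrays. The log2 change was 0.23 (SE 0.11, n = 4 per group, limma adjusted p = 0.217). MiR-337, encoded between Meg3 and Rtl1, read 72.7, 51.5, 63.2 and 63.4 in control islets and 69.2, 74.1, 71.9 and 77.5 in pregnancy. Again the first control array overlapped with the pregnant ones and the other 3 lay below them, and the log2 change was 0.23 (SE 0.11, limma adjusted p = 0.217).

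MiR-127, the best studied of the antisense miRNAs of Rtl1, gave some of the brightest signals of the locus. Its scaled signals were 936, 688, 820 and 754 in control islets and 807, 774, 856 and 891 in pregnancy, so that the highest and the lowest array were both control arrays. The log2 change was 0.06 (SE 0.11, limma adjusted p = 0.715), and without control replicate 2 it was -0.0029. MiR-434, a rodent miRNA of the same group, read 551, 445, 526 and 529 in control islets and 520, 485, 630 and 535 in pregnancy, a log2 difference of 0.08 (SE 0.11, limma adjusted p = 0.650). MiR-136 read 1078, 684, 802 and 1007 in control islets and 883, 756, 1088 and 1183 in pregnancy. These ranges overlapped widely, and its log2 change of 0.13 (SE 0.19, limma adjusted p = 0.681) was smaller than its SE. Its minor strand miR-136* read 146, 115, 134 and 148 in control islets and 144, 149, 158 and 182 in pregnancy (log2 change 0.22, SE 0.11, limma adjusted p = 0.242). For both strands control replicate 2 was the lowest array and pregnant replicate 4 the highest.

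In the Rian stretch miR-341, a rodent miRNA with a repetitive sequence, was detected on all arrays and miR-370 on none. MiR-341 read 95.6, 68.8, 75.9 and 73.3 in control islets and 81.9, 93.3, 89.1 and 112 in pregnancy. Control replicates 2, 3 and 4 lay below all pregnant arrays and control replicate 1 above 3 of them, a log2 difference of 0.26 (SE 0.13, limma adjusted p = 0.245).

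In the miR-379/miR-410 cluster 18 of 35 arms were tested, 17 had a positive log2 change, 0 passed, and the median was 0.10. MiR-411, which is encoded next to miR-379 and differs from it within the seed, had the smallest p of the 26 arms. Its scaled signals were 33.5, 20.5, 27.9 and 27.6 in control islets and 35.2, 33.0, 40.0 and 38.0 in pregnancy. Only control replicate 1 and pregnant replicate 2 overlapped. The means were 27.4 ± 5.35 (SD, n = 4) and 36.5 ± 3.09, a 1.35-fold difference (log2 change 0.43, SE 0.15, limma adjusted p = 0.123). Its neighbour miR-379, which heads the cluster and is 14 of 21 bases identical to it, differed by 0.11 on the log2 scale (SE 0.13, limma adjusted p = 0.622).

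MiR-376b-5p read 19.7, 14.6, 13.5 and 17.4 in control islets and 21.6, 19.4, 19.9 and 25.8 in pregnancy. All pregnant arrays but replicate 2 lay above all control arrays, and the log2 change was 0.42 (SE 0.15, limma adjusted p = 0.123). MiR-376c read 86.5, 57.4, 68.1 and 79.9 in control islets and 89.2, 79.6, 88.9 and 94.8 in pregnancy, a log2 difference of 0.29 (SE 0.14, limma adjusted p = 0.217). The miR-376 hairpins are known for A-to-I editing in human and mouse tissue, which a hybridisation signal does not resolve. MiR-376a, the third member of that family, differed by 0.10 (SE 0.14, limma adjusted p = 0.657), less than its SE.

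MiR-382 was among the tightest, with 75.8, 59.5, 64.6 and 62.0 in control islets and 72.4, 70.9, 77.0 and 82.9 in pregnancy. Control replicate 1 lay within the pregnant range and the other control arrays below it (log2 change 0.21, SE 0.10, limma adjusted p = 0.212). MiR-487b read 24.6, 12.3, 15.3 and 20.7 in control islets and 20.3, 23.9, 21.5 and 32.2 in pregnancy. Its log2 change of 0.45 had an SE of 0.24 (limma adjusted p = 0.277), and the groups overlapped through control replicates 1 and 4. MiR-485, which acts on synaptic vesicle proteins in rat hippocampal neurons, had the largest log2 change of the 26 arms (1.08, SE 0.53, limma adjusted p = 0.228). Its scaled signals were only 8.04, 1.30, 3.92 and 2.41 in control islets and 8.61, 7.72, 6.73 and 4.46 in pregnancy. It was detected on 2 of 4 control arrays and 3 of 4 pregnant arrays, and on the others the level is only a bound. With a floor 4 times higher its log2 change was 0.65.

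MiR-494 was the 1 tested arm with a negative log2 change (-0.11, SE 0.29, limma adjusted p = 0.804). It read 765, 1115, 722 and 738 in control islets and 843, 707, 466 and 1191 in pregnancy. The order of its arrays was unlike that of its neighbours: control replicate 2, the lowest array for 17 of the 24 arms detected everywhere, was its second highest. The sign of this change turned under several settings, to 0.036 when the percentile was taken over every miRNA, 0.035 without control replicate 2 and 0.13 without pregnant replicate 3.

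The remaining 12 tested arms were miR-431, miR-379, miR-299, miR-329, miR-495, miR-376a, miR-300-3p, miR-539, miR-154, miR-409-5p, miR-369-5p and miR-410. All 12 had a positive log2 change, from 0.0022 for miR-410, which is reported to raise insulin secretion in a mouse beta-cell line, to 0.21 for miR-431, and limma adjusted p-values of 0.431 to 0.990. The smallest differences were those of miR-410 (mean of 164 in pregnancy against 163 in control islets), miR-154 (187 against 186), miR-329 (0.0052 on the log2 scale) and miR-369-5p (117 against 116).

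**Figure D2:**
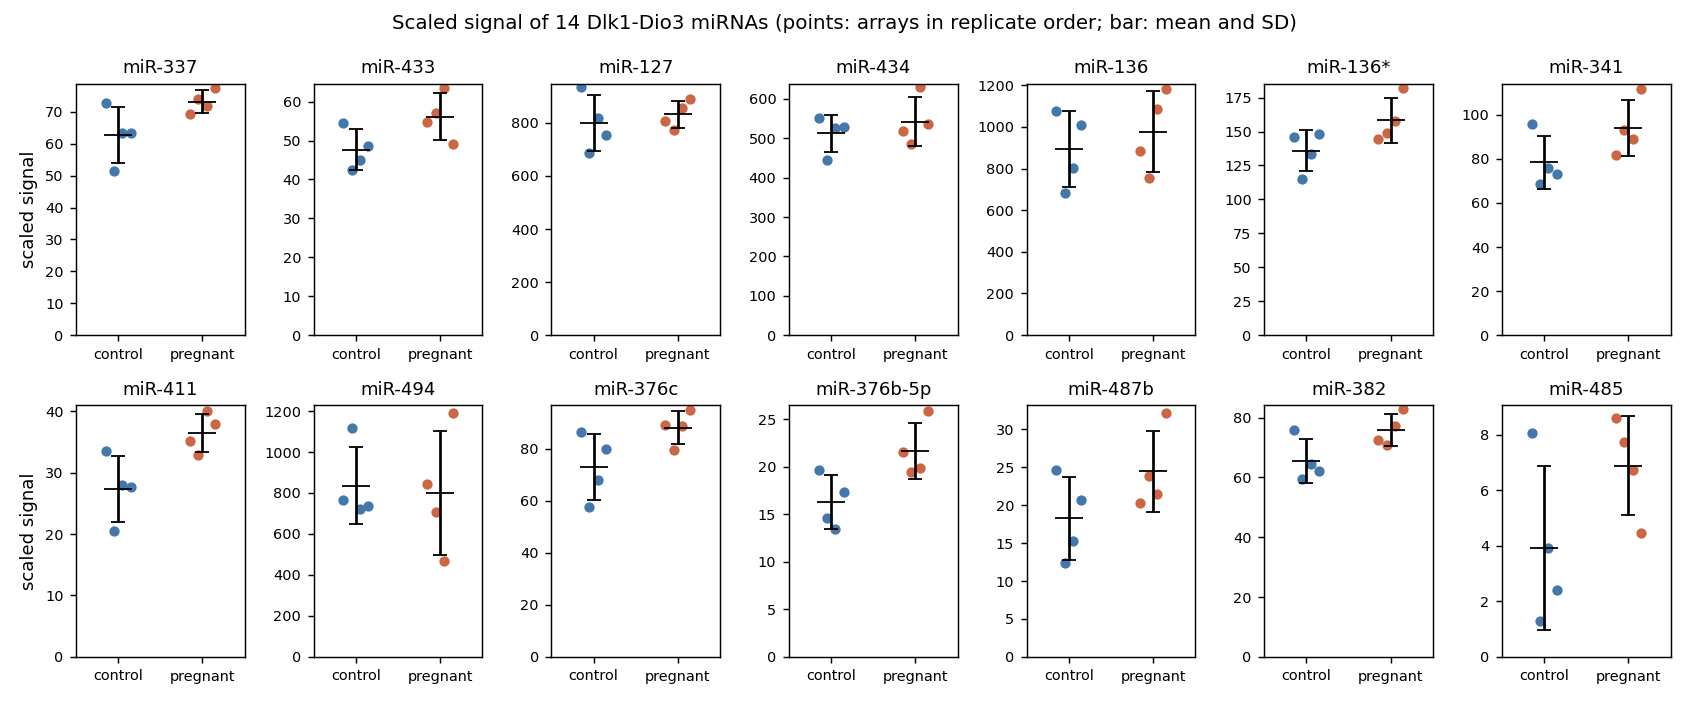
Scaled signal (y axis, from 0, a separate scale for each miRNA) on control (blue) and pregnant (orange) arrays for the 14 Dlk1-Dio3 miRNAs described by name, with points in replicate order and bars for mean and SD (n = 4). The groups overlap for all 14, and for miR-411 (20.5 to 33.5 against 33.0 to 40.0) and miR-376b-5p (13.5 to 19.7 against 19.4 to 25.8) only through control replicate 1 and pregnant replicate 2.

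The arms varied together from array to array. The mean log2 signal of the 24 arms detected on all arrays was 6.82, 6.37, 6.52 and 6.63 on control arrays 1 to 4 and 6.66, 6.61, 6.75 and 6.92 on pregnant arrays 1 to 4. Within the control group, replicate 2 was the lowest array for 20 of the 24 arms and replicate 1 the highest for 21. Within the pregnant group, replicate 2 was the lowest for 16 and replicate 4 the highest for 18. The group means were 6.58 ± 0.19 (SD, n = 4) and 6.74 ± 0.13, so the difference of 0.15 was no larger than the spread between control arrays. Control replicate 2 was the lowest array in both long stretches, while the highest was pregnant replicate 3 in the first and pregnant replicate 4 in the cluster. The stretch from Meg3 to Rtl1 averaged 7.86, 7.39, 7.63 and 7.70 in control islets and 7.73, 7.70, 7.94 and 7.90 in pregnancy, and the miR-379/miR-410 cluster 6.38, 5.93, 6.04 and 6.18 and then 6.22, 6.14, 6.25 and 6.50.

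**Figure D3:**
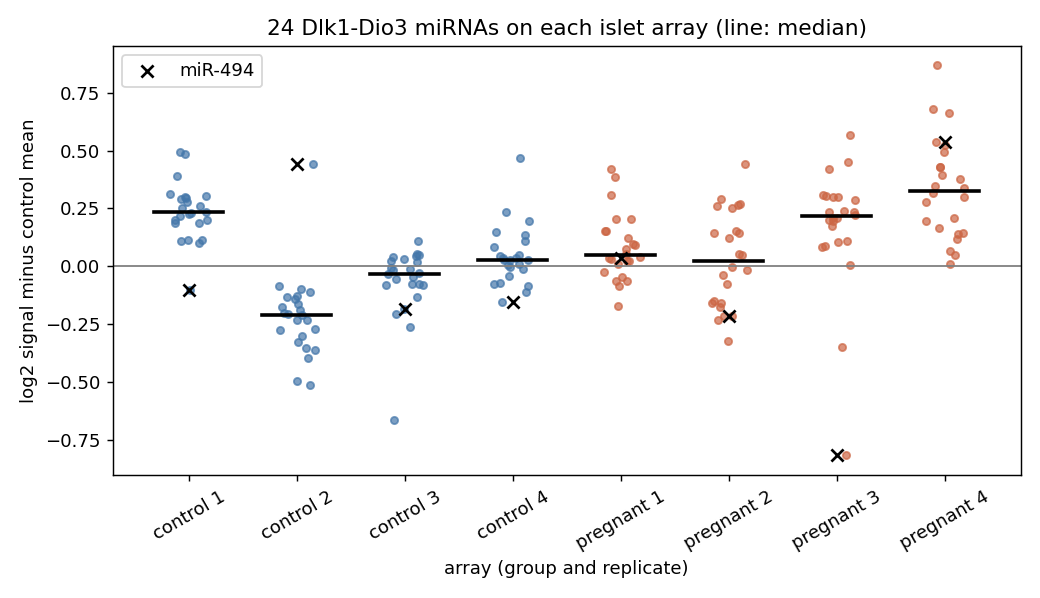
Log2 signal minus the control mean (y axis) of the 24 Dlk1-Dio3 miRNAs detected on all arrays, by array (x axis), with the median as a line and miR-494 as a cross. Medians run from -0.21 in control replicate 2 to 0.33 in pregnant replicate 4, and control replicate 1 (0.23) lies above pregnant replicates 1, 2 and 3 (0.05, 0.02 and 0.22).

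Across the 8 arrays the median Pearson's r over the 276 pairs of these arms was 0.71, and 92.8% of the pairs had a positive r. For pairs among the 129 other miRNAs detected on all arrays the median r was 0.03, with 52.2% positive. After each group's mean was taken out the medians were 0.72 and 0.03, so the likeness was also present within groups. With quantile normalization the medians were 0.84 and 0.05, and with the authors' log2 values 0.83 and 0.05. All pairs share the same 8 arrays and the scaling of each array, and neighbouring arms are cut from shared transcripts. These values are therefore descriptions without a test. The 129 other miRNAs were pooled, and no other cluster or cell-type set among them was compared separately. The likeness thus cannot be called particular to the locus. Against the mean of the other arms, miR-376a (r = 0.92), miR-376c (0.92) and miR-487b (0.92) were the closest, miR-433 (0.52) and miR-539 (0.43) were looser, and miR-494 (-0.18) did not follow them.

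**Figure D4:**
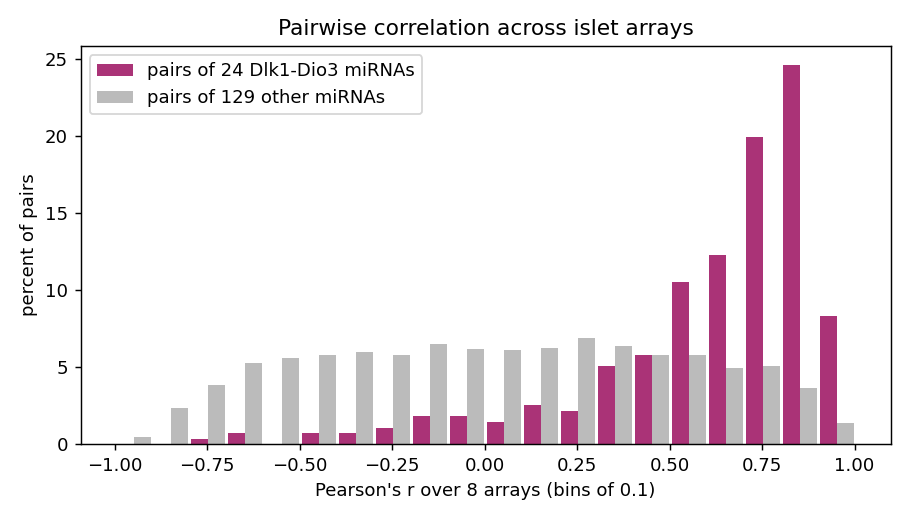
Percent of miRNA pairs (y axis) by Pearson's r over the 8 islet arrays (x axis, bins of 0.1), for the 24 Dlk1-Dio3 miRNAs and for 129 other miRNAs detected on all arrays. Pairs within the locus pile up at high r (median 0.71), while the other pairs spread over the whole range (median 0.03).

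The shared level was set beside other properties of the arrays. The unscaled 75th percentile, a measure of array brightness, was highest for pregnant replicate 4 (1012) and control replicate 1 (1008), which had the highest means of the 24 arms, and lowest for control replicate 2 (631), which had the lowest. The remaining 5 arrays ran from 721 to 852 and did not keep this order, since pregnant replicate 3 was the second dimmest (721) and had the third highest mean (6.75). In control replicate 2 the stromal miRNAs summed to 7592, against at most 2553 on any other array. That second highest sum was in control replicate 1, whose mean of the 24 arms was the second highest. These sums consist mostly of miR-143, which read 6189 in control replicate 2 and 1611 in control replicate 1. MiR-10a-5p, miR-10b and miR-214 of the list were also highest in control replicate 2. MiR-199a-3p (356) and miR-199a-5p (67.1) were highest in pregnant replicate 2. The part of brightness and of stromal content in the level of the Dlk1-Dio3 miRNAs was not tested. The islet markers miR-375, miR-7a and both other tested miR-7 arms summed to 28056 to 33533 in control islets and 24230 to 31296 in pregnancy. Control replicate 2 was at the bottom of the control range there as well. Pregnant replicate 2, the lowest of its group for 16 of the 24 arms, had the lowest islet marker sum of all arrays. Its leukocyte sum was 5190, against at most 1129 on any other array. Within its group it also had the highest stromal (2103) and endothelial (1736) sums, while the erythroid sum was highest in pregnant replicate 4 (1653). The part of these markers was not tested either.

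**Figure D5:**
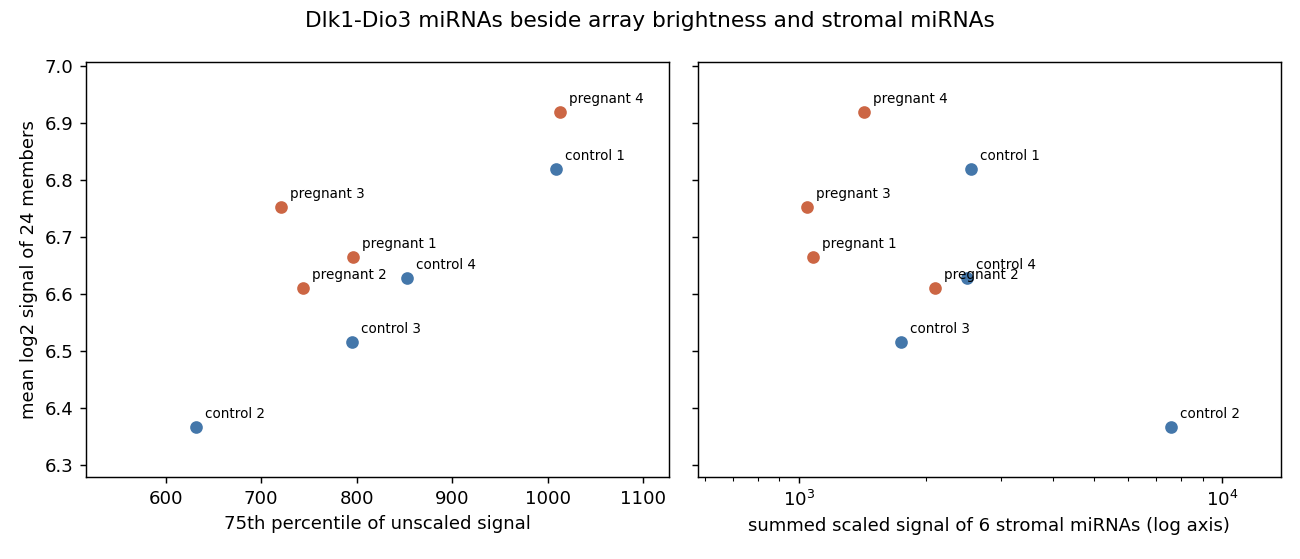
Mean log2 signal of the 24 Dlk1-Dio3 miRNAs (y axis) beside the unscaled 75th percentile of each array (left, linear axis) and the summed scaled signal of 6 stromal miRNAs (right, log axis), for control (blue) and pregnant (orange) arrays. Control replicate 2 is the dimmest array (631), holds the most stromal signal (7592, of which miR-143 gives 6189) and has the lowest mean (6.37).

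The count of positive changes and their size leaned on single arrays. Without control replicate 2, 20 of 26 arms were positive and their median was 0.05. Without pregnant replicate 4 these values were 19 of 26 and 0.08. Leaving out control replicate 1 gave a median of 0.22, leaving out pregnant replicate 2 0.21 and leaving out control replicate 4 0.19. The header's array names end in numbers whose meaning the labels do not give. Their first number was read as 1 of 2 rows of a slide, which is an assumption. In row 1, which held 3 pregnant arrays and control replicate 2, 25 of 26 arms were higher in pregnancy with a median of 0.41. Over all miRNAs tested 48.5% were higher there, with a median of -0.0080. The row 1 difference of the arms thus rests on 1 control array, the lowest of the 8 for 17 of the 24 arms detected everywhere. In row 2, which held pregnant replicate 1 and 3 control arrays, 15 of 26 were higher with a median of 0.015, against 42.1% of all miRNAs tested. With the row as a block the median was 0.19 and the difference of miR-411 was 0.55 (limma adjusted p = 0.0707). Scaling to all miRNAs on the array raised the median of all 171 miRNAs to 0.13 and that of the 26 arms to 0.27, while quantile normalization gave 0.03 and 0.25 and the authors' log2 values 0.03 and 0.22.

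Only 2 arms from other imprinted loci were tested, and neither shared the sign. MiR-335, from the imprinted Mest gene, was 243 ± 39.3 (SD, n = 4) in control islets and 145 ± 20.3 in pregnancy (log2 change -0.74, limma adjusted p = 0.0430), and miR-296*, from the Gnas locus, differed by -0.45 (limma adjusted p = 0.170). MiR-296, miR-298 and miR-483 were detected on no array, nor was miR-758, a further miRNA of the miR-379/miR-410 cluster that the list of names leaves out. Among the 145 tested miRNAs from elsewhere, those whose log2 signal followed the mean of the 24 arms most closely over the 8 arrays were miR-384-3p (r = 0.85), miR-141 (0.84), miR-182 (0.83), miR-96 (0.78) and miR-101b (0.76). They are the highest of 145 values over 8 arrays, given as a description.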

How the data were processed

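The authors deposited an unnormalized signal intensity per miRNA, on a linear scale with a lowest value of 1, and a detection flag. They also deposited log2 values normalized between arrays, per the file headers and values. The scanner software is not given in the sources used here. Flags, and the presumed slide rows, were matched to samples by the names in the line above the file header, which no label repeats. Arrays were scaled to a common 75th percentile, taken over the 153 miRNAs called present everywhere, floored at 0.810, which is the lowest scaled value and so changed none, and log2 transformed. The 171 miRNAs detected on at least 4 arrays entered lmFit and eBayes of limma 3.58.1 (R 4.3.3; pregnant minus control, 2-sided), with Benjamini-Hochberg adjustment over all 171 and a threshold of 0.05. The fit was tested on simulated data. Members and lists were chosen with earlier results of these data known. Named members are the 10 of smallest p, the 4 brightest and hairpins with both arms tested. Alternatives were other scalings, filters and floors, the authors' values, a replicate block, the slide row and leaving out each array. The INS832/13 cell arrays were not used.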

Additional observations from a re-analysis of the deposited data

Results flagged for a closer look

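In 2 of the 52 groups of 4 arrays checked among the tested arms, 1 array stood far from the other 3, and chance gives about 1 such group in 20. MiR-494 had a log2 signal of 10.12 in control replicate 2 (scaled signal 1115, against 722 to 765 on the other control arrays). MiR-495 had a log2 signal of 5.33 in control replicate 1 (scaled signal 40.2, against 31.3 to 32.6).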

How the results depend on the processing

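In all 17 alternatives 0 of the Dlk1-Dio3 arms passed the limma adjusted threshold. Positive changes numbered 19 to 25 of 26 when 1 array was left out, and 23 of 24 among arms detected on all arrays. Without the detection filter they were 36 of 48, where most added arms have only bounds. The median of the arms ran from 0.05 to 0.27. Calls over all miRNAs were less stable than the 8 reported: 2 under scaling to all miRNAs, 0 without scaling, 0 without the detection filter, 23 with a term for the slide row, and 0 to 19 when 1 array was left out. Of 237 refitted values of the 14 named arms, 4 changed sign: miR-127 without control replicate 2 (-0.0029, with 0.14 as the highest value when 1 array was left out), and miR-494 under scaling to all miRNAs (0.036), without control replicate 2 (0.035) and without pregnant replicate 3 (0.13, with -0.33 as the lowest). The cause was not tested. The values gave no sign that the replicate numbers pair the arrays. Same-numbered arrays deviated with correlations of -0.14, 0.17, -0.28 and -0.49, and 1 of 8 arrays matched its own number best. With 4 arrays per group this check cannot exclude a pairing. With the replicate block 10 miRNAs passed (3 higher, 7 lower), 0 of them Dlk1-Dio3 arms, with miR-376b-5p at an adjusted p of 0.0868. Signals near the negative control features limit the dimmest arms.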
